A study of Mus musculus with 9 samples.

Results

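The class II presentation genes are a set of 8 mouse genes, Cd74, Ciita, H2-Aa, H2-Ab1, H2-Eb1, H2-DMa, H2-DMb1 and H2-Oa, described here in brain tissue after injection of a baculoviral vector. They were found as all probe sets whose single gene symbol in the platform annotation was one of these names. This gave 15 of the 34945 probe sets with a single symbol, for 7 of the 8 genes. H2-DMb1 has no value here, because 2 probe sets name it together with H2-DMb2. None of the 8 tested class II probe sets passed the test for a difference between groups in the fit over all arrays. Between 0% and 0.775% of all tested probe sets passed in the 3 comparisons, so this does not show that class II was level. Some genes of class I presentation rose in the same tissue.

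Class II molecules are pairs of an alpha and a beta chain that carry peptides from engulfed proteins to the cell surface, where CD4 T cells read them. H2-Aa and H2-Ab1 encode the chains of mouse I-A, and H2-Eb1 encodes the beta chain of I-E. Cd74, the invariant chain, guides new class II pairs to the endosome and fills their groove, H2-DMa and H2-DMb1 form the H2-M pair that exchanges its remnant for peptide, and H2-Oa encodes a chain of H2-O, which restrains H2-M. Ciita is the transactivator without which these promoters are largely silent. Dendritic cells, B cells and macrophages at the brain's borders carry class II constitutively, while resting microglia carry little and gain it under interferon gamma.

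The mice were adult male BALB/c animals without a genetic change in the labels, and all groups received an injection into the striatum on both sides. BV-HSVtk is a vector built from baculovirus, a virus of insects. HS mice received vector purified by high-speed centrifugation. MC+HS mice received vector that had passed membrane chromatography in addition. Each side received 100000000 particles in 10 µL. Mock mice received Sf9 insect cell medium without baculovirus, taken through MC+HS, so HS and mock differ in both vector and purification, which cannot be told apart. Tissue around the injection sites was taken after 2 days from 3 mice per group, with 1 array per mouse (n = 3 per group). It is whole tissue, in which fewer cells of a type and less RNA per cell cannot be told apart. The striatal markers Drd1 and Drd2, which encode dopamine receptors, lay between percentiles 86.9 and 93.5 and between percentiles 84.1 and 95.4 of their arrays. Summed over the 6 measured striatal markers, the signal was 5167 on HS replicate 1 and 16127 to 22635 on the other arrays.

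The array of HS replicate 1 differed most from the rest. Its median correlation with all other arrays was 0.805, where the same median was 0.972 to 0.982 for the other arrays. Its standard deviation of log2 signals was 1.54, against 2.17 to 2.39. Results are therefore given with and without this array. Array medians ranged from 147 to 263 intensity units. Signals below are intensity units after each array's median had been moved to a common value, and a log2 difference is a difference of log2(signal + 16), which understates changes of dim genes.

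Class II promoters share an X box, bound by RFX and CREB proteins, and a Y box, bound by NF-Y, on which Ciita is assembled. The bases before the start of 4 members are shown because they carry these shared letters. RefSeq windows of assembly GRCm38.p6 were found for 5 of the 8 members, 6 windows in all. This assembly is of the C57BL/6J strain, and BALB/c mice carry other H2 alleles. Each stretch is 110 bases, read 5′ to 3′ on the gene's strand and ending at the base before the start, all on chromosome 17: H2-Aa on the minus strand at chr17:34287824-34287933, H2-Eb1 at chr17:34305757-34305866, H2-DMb1 at chr17:34153081-34153190 and H2-Oa at chr17:34092269-34092378, the last 3 on the plus strand. Capitals mark GNAACT, a part of the X box, and TGATTGG, the core of the Y box.
H2-Aa: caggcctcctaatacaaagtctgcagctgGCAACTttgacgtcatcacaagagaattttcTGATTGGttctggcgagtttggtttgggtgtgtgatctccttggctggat
H2-Eb1: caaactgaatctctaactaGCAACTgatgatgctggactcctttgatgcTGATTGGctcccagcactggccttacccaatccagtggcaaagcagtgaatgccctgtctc
H2-DMb1: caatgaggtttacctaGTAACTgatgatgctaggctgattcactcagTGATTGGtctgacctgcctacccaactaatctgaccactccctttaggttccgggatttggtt
H2-Oa: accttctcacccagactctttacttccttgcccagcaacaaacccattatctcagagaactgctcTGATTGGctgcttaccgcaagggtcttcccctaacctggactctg

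H2-Aa and H2-DMb1 have 25 bases between the marked stretches and H2-Eb1 has 24. H2-Oa has the TGATTGG stretch but no GNAACT at that spacing. It has gcaaca, which differs from GNAACT in the last letter, at the same spacing as in H2-Aa and H2-DMb1. TGATTGG was not found in the 2 windows of H2-DMa, where GNAACT alone was not searched. Searched on either strand in the 250 bases before each start, TGATTGG is present in 7.23% of the 32851 windows in the table. GNAACT followed by TGATTGG after 10 to 40 bases is present in 0.231% of them. The letters were chosen after these promoters had been read, so the shares describe how common the pattern is and test nothing.

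Of the 15 member probe sets, 8 exceeded the 40th percentile of signals on at least 3 arrays and could be tested. They stand for Cd74, H2-Aa, H2-Ab1, H2-Eb1 and H2-DMa. The other 7 were too dim for a test: all 3 of Ciita, the 1 of H2-Oa, and 1 each of H2-Aa, H2-Ab1 and H2-DMa.

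**Figure D1:**
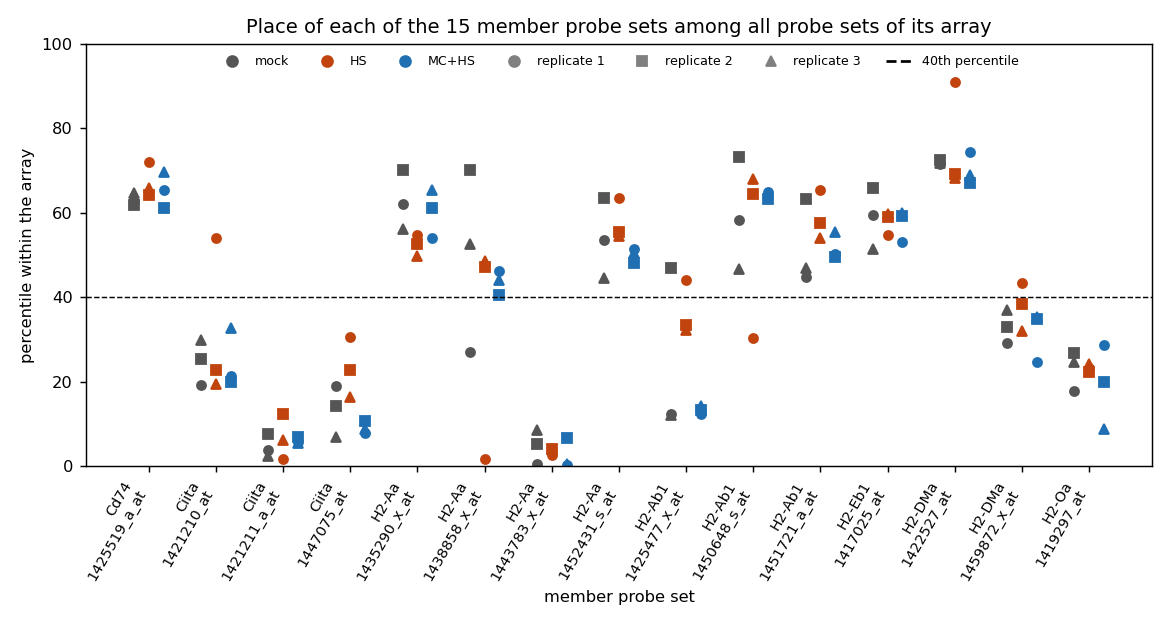
Percentile of each of the 15 member probe sets among all probe sets of its array (y axis) for every array, with groups by colour, replicates by symbol, and the 40th percentile as a dashed line. Cd74 and H2-DMa 1422527_at lie above the 60th percentile on every array, while the Ciita and H2-Oa probe sets lie below the line on all arrays but HS replicate 1 for Ciita 1421210_at.

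Ciita, the transactivator, was dim in all groups. Its probe set 1421210_at gave 181, 35.2 and 24.4 in HS, 33.9, 31.1 and 70.7 in MC+HS, and 29.4, 43.6 and 62.0 in mock. Apart from HS replicate 1, the vector-injected arrays lay within or near the mock range. The other probe sets, 1421211_a_at and 1447075_at, ranged from 0.640 to 12.2 and from 8.28 to 92.9, and the latter was also highest on HS replicate 1. No fold is drawn from these probe sets, since they passed no filter. H2-Oa, the H2-O chain, gave 72.4, 34.35 and 36.3 in HS, 52.6, 30.8 and 9.65 in MC+HS, and 26.3, 47.4 and 46.1 in mock, with overlapping groups.

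The dim probe sets of H2-Aa, H2-Ab1 and H2-DMa are given as signals alone. H2-Ab1 1425477_x_at gave 138, 65.8 and 59.7 in HS, 15.3, 15.6 and 18.5 in MC+HS, and 14.9, 138 and 15.01 in mock. Mock replicate 2 and the HS arrays lay above all other arrays here, and no test was made because the probe set did not pass the filter. H2-Aa 1443783_x_at stayed between -1.46 and 10.4 on all arrays. H2-DMa 1459872_x_at gave 134, 86.4 and 59.3 in HS, 41.9, 74.7 and 79.6 in MC+HS, and 56.4, 66.1 and 88.0 in mock, with overlapping groups and HS replicate 1 highest.

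Cd74, the invariant chain, varied least over the 9 arrays among the tested members. Probe set 1425519_a_at gave 308, 353 and 391 in HS, 383, 286 and 449 in MC+HS, and 315, 304 and 337 in mock. The 3 groups overlapped, and the highest array was 1.57 times the lowest. The difference from mock was 0.13 ± 0.18 (SE) in HS and 0.20 ± 0.18 in MC+HS on the log2 scale (limma, Benjamini-Hochberg adjusted p of 0.737 and 1). The 95% confidence intervals reached from 0.820 to 1.46-fold and from 0.860 to 1.53-fold.

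H2-Aa, the I-A alpha chain, was read by 3 tested probe sets that did not move alike. Probe set 1435290_x_at gave 183, 187 and 159 in HS, 200, 287 and 359 in MC+HS, and 302, 483 and 217 in mock. Every HS array lay below every mock array and every MC+HS array. The difference between HS and mock was -0.79 ± 0.29, a fold of 0.577 with an interval from 0.367 to 0.906, and it did not pass (limma unadjusted p = 0.0223, adjusted p = 0.581). Probe set 1452431_s_at gave 236, 217 and 209 in HS, 175, 146 and 165 in MC+HS, and 194, 330 and 125 in mock. Here the HS arrays lay above the MC+HS arrays, and both lay within the mock range. Its difference from mock was 0.12 ± 0.28 in HS and -0.29 ± 0.28 in MC+HS (limma adjusted p of 0.831 and 1). Probe set 1438858_x_at was the most scattered, with 6.94, 139 and 150 in HS, 131, 100 and 122 in MC+HS, and 50.3, 485 and 184 in mock. Its lowest array was HS replicate 1 and its highest mock replicate 2. Its difference from mock was -1.16 ± 0.85 in HS and -0.50 ± 0.85 in MC+HS (limma adjusted p of 0.635 and 1), and without HS replicate 1 the HS value was -0.23 ± 0.60. Probe sets whose names end in x or s can bind related transcripts, and the H2 family is one of near-identical members, so these values are uncertain in that respect.

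H2-Ab1, the I-A beta chain, was read by 2 tested probe sets. Probe set 1450648_s_at gave 92.3, 358 and 446 in HS, 373, 325 and 339 in MC+HS, and 246, 581 and 138 in mock. The mock arrays spanned most of the range, and HS replicate 1 was lowest. The difference from mock was -0.12 ± 0.59 in HS and 0.32 ± 0.59 in MC+HS (limma adjusted p of 0.923 and 1). With HS replicate 1 left out the HS difference was 0.52 ± 0.41 (limma adjusted p = 0.629), with an interval from 0.771 to 2.68-fold. Probe set 1451721_a_at gave 251, 241 and 204 in HS, 164, 157 and 210 in MC+HS, and 125, 328 and 139 in mock. The mock range enclosed both vector groups, and the differences were 0.34 ± 0.31 and -0.03 ± 0.31.

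H2-Eb1, the I-E beta chain (1417025_at), gave 184, 263 and 279 in HS, 189, 260 and 268 in MC+HS, and 261, 381 and 173 in mock. Mock held both the highest and the lowest array. The difference from mock was -0.11 ± 0.28 in HS and -0.12 ± 0.28 in MC+HS (limma adjusted p of 0.845 and 1). H2-Ea, the I-E alpha chain and no member of the set, showed the same order of the mock arrays, with 259, 427 and 130 in mock against 196 to 246 on the 6 vector arrays. The chains H2-Ea, H2-DMb2 and H2-Eb2 outside the set were not called in either vector comparison, 0 of 3, against 0.93% of all genes in HS and 0.713% in MC+HS. H2-Ob was too dim for a test.

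H2-DMa, a chain of the H2-M peptide exchanger (1422527_at), gave 809, 462 and 455 in HS, 652, 405 and 433 in MC+HS, and 522, 549 and 490 in mock. HS replicate 1 was the highest array, and the other 2 HS arrays lay below all mock arrays. The difference from mock was 0.09 ± 0.27 in HS and -0.10 ± 0.27 in MC+HS (limma adjusted p of 0.872 and 1). The HS difference was -0.18 ± 0.18 with HS replicate 1 left out (limma adjusted p = 0.719).

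**Figure D2:**
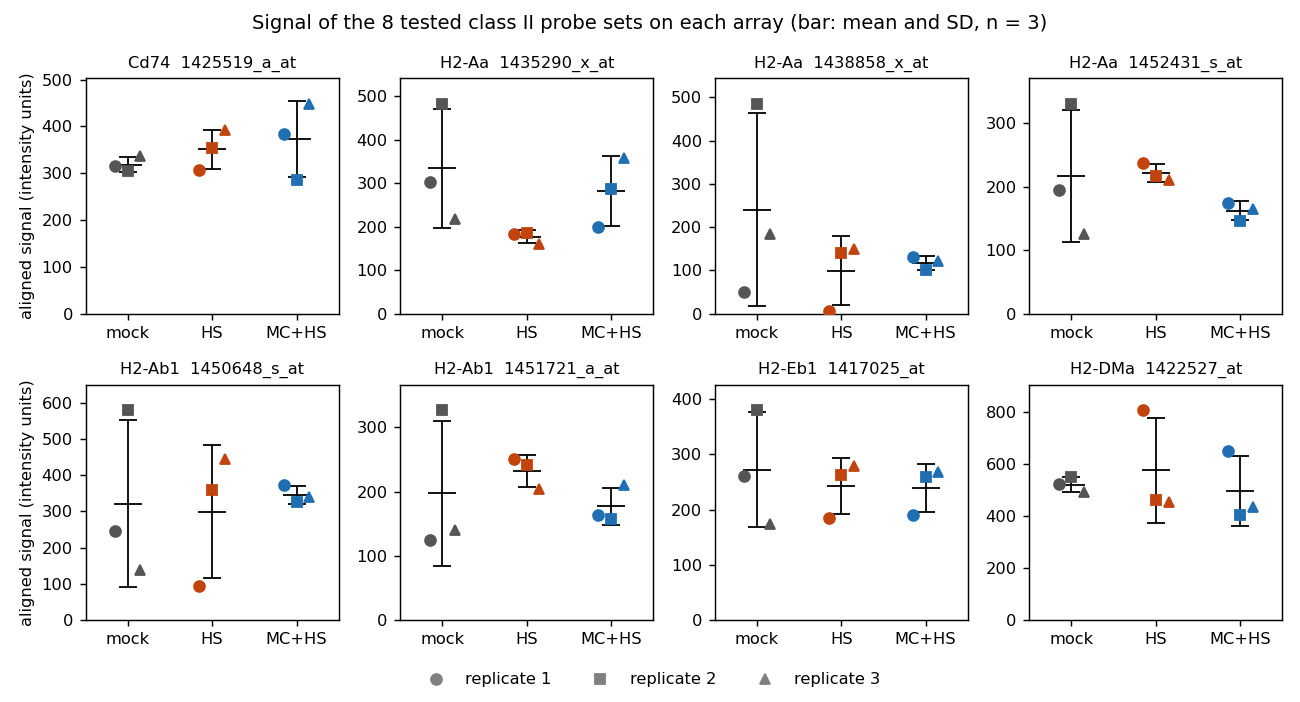
Aligned signal in intensity units (y axis, linear, from 0) of the 8 tested class II probe sets on each array by group, with the mean and SD of 3 arrays as black bars and replicates by symbol. Mock replicate 2 is the highest of the 9 arrays in 6 of the 8 panels, and the groups overlap in most.

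None of the 8 tested member probe sets passed in HS against mock, where 0.775% of all 28257 tested probe sets did. None passed in MC+HS against mock, where 0.58% of all did, and none in MC+HS against HS, where 0% of all did (limma, Benjamini-Hochberg). At an unadjusted p under 0.05 the counts were 1, 0 and 0 of 8, against 6.67%, 4.89% and 3% of all probe sets. Groups did not overlap for 1, 0 and 2 of the 8, against 14.8%, 18.6% and 8.02% of all. All 3 are H2-Aa probe sets: 1435290_x_at in HS against mock and against MC+HS, and 1452431_s_at in MC+HS against HS. HS against mock and MC+HS against mock share the mock arrays. These counts do not show that class II expression was level: the highest upper 95% limits over the 8 were 2.31-fold of mock in HS and 3.14-fold in MC+HS, both for H2-Ab1 1450648_s_at, and the lowest lower limits were 0.117-fold and 0.186-fold, both for H2-Aa 1438858_x_at. Without HS replicate 1 the counts of called members were again 0, 0 and 0, against 3.32%, 3.34% and 0.00357% of all probe sets, and the limits ran from 0.343 to 2.68-fold in HS and from 0.312 to 2.18-fold in MC+HS. With arrays weighted by their estimated quality, H2-Aa 1435290_x_at was the 1 member called in HS against mock, at -0.89, where 27.5% of all probe sets were called, and the 1 called in MC+HS against HS, at 0.63, where 23.1% were.

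MC+HS against HS, the comparison of the purifications that the series set out to make, differed for the 8 member probe sets by -0.41 to 0.66 on the log2 scale, with 4 above and 4 below 0. The smallest limma adjusted p was 0.728. The largest value belonged to H2-Aa 1438858_x_at, 0.66 ± 0.85, and turned to -0.27 without HS replicate 1. H2-Aa 1435290_x_at, whose groups did not overlap, stood at 0.60 ± 0.29 with all arrays and at 0.62 ± 0.29 without HS replicate 1 (limma adjusted p of 0.728 and 0.672).

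Mock replicate 2 carried the highest signal of the 9 arrays in 6 of the 8 tested member probe sets, those of H2-Aa, H2-Ab1 and H2-Eb1. On the log2 scale it lay above the mock mean by 0.53 for H2-Eb1 to 1.42 for H2-Aa 1438858_x_at, while Cd74 stood at -0.06 and H2-DMa at 0.08. For the mean of Cd74, H2-Aa, H2-Ab1 and H2-Eb1, the mock arrays lay at -0.05, 0.52 and -0.47 around their own mean, and the MC+HS arrays at -0.09, -0.01 and 0.25. HS replicate 2 and 3 stood at -0.05 and 0.03, and HS replicate 1 at -0.66. The spread among mock mice was therefore wider than the distance of any vector array from the mock mean, HS replicate 1 apart.

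**Figure D3:**
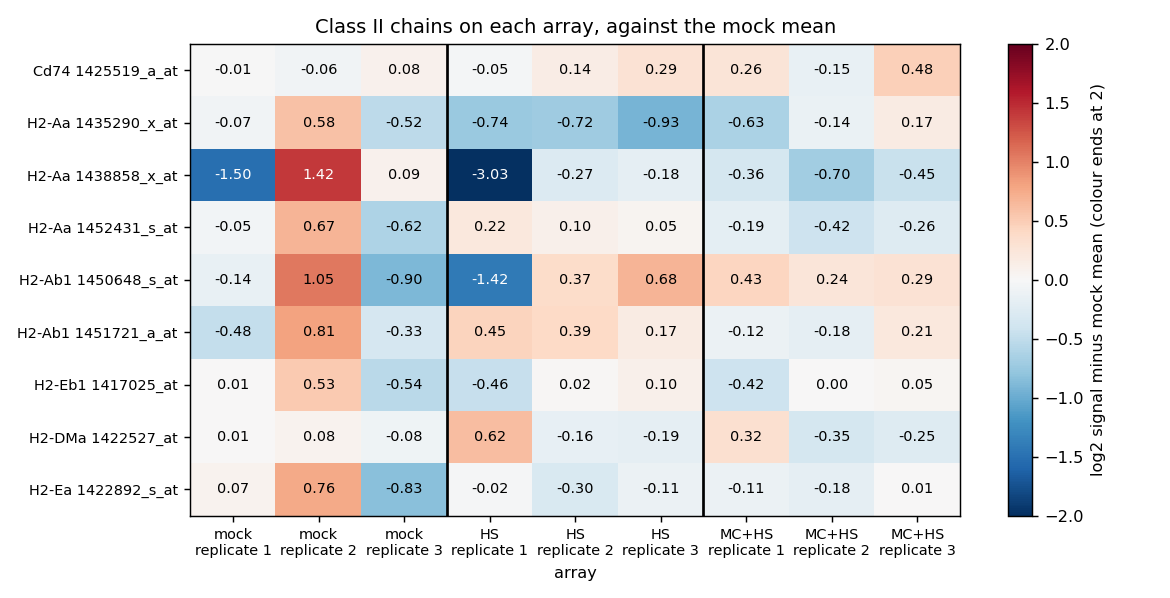
Log2(signal + 16) of each tested class II probe set, and of H2-Ea, minus its mean over the 3 mock arrays (colour and printed value, colour ending at 2) on each of the 9 arrays. Mock replicate 2 is above 0.5 for every I-A and I-E chain and near 0 for Cd74 and H2-DMa.

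Summed markers of border macrophages, dendritic cells, homeostatic microglia and choroid plexus were also highest of the 9 arrays on mock replicate 2, while those of B cells, T cells and infiltrating monocytes were not. All 7 border macrophage markers were on the array and 5 passed the filter, with none listed at 0. Their summed signal was 1385 on this array, 796 and 1060 on the other mock arrays, 569 to 816 in HS and 714 to 781 in MC+HS. Cbr2, a carbonyl reductase used as a border macrophage marker, gave 370 there, against 144 and 231 on the other mock arrays and 62.0 to 117 on the vector arrays. Mrc1, another marker of this list, differed far less among the mock arrays, as given below. The remaining border macrophage markers are not given for this array, so Cbr2 does not stand for the list. Dendritic cell markers, 8 of 9 on the array and 5 past the filter, summed to 1064 on mock replicate 2, against 921 and 962 in mock, 639 to 933 in HS and 831 to 1023 in MC+HS. The dendritic markers Ccr7, Xcr1 and Cd209a were too dim for a test. B cell markers, 6 of 7 on the array and 2 past the filter, summed to 414 there, 316 and 386 in the rest of mock, 328 to 748 in HS and 255 to 528 in MC+HS, with Cd79a and Cd79b between 2.82 and 24.6 on mock arrays. The choroid plexus markers, all 5 on the array, summed to 13969, 14536 and 1589 on the 3 mock arrays. Homeostatic microglia markers, 9 of 10 on the array, summed to 16529 on mock replicate 2, 13805 and 14458 on the other mock arrays and 9998 to 15304 on the vector arrays. Infiltrating monocyte markers, 6 of 8 on the array, summed to 3334 there, 1998 and 2082 in the rest of mock, 1950 to 6713 in HS and 4923 to 5660 in MC+HS. T cell markers, 6 of 8 on the array, summed to 594 there, below 704 and 605 on the other mock arrays, and to 495 to 621 on the vector arrays. The part of any of these in the class II values was not tested.

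Leaving out mock replicate 2 and HS replicate 1 together was chosen after their values had been seen, and the result is given for its size alone. Without mock replicate 2 alone, H2-Ab1 1451721_a_at stood at 0.74 ± 0.19 in HS (limma adjusted p = 0.259). Without it and HS replicate 1 together, 1 of the 8 member probe sets was called in HS against mock, against 3.84% of all probe sets. This was H2-Ab1 1450648_s_at, with 1.05 ± 0.23 (limma adjusted p = 0.0240), and in MC+HS it stood at 0.84 ± 0.21 (limma adjusted p = 0.0511). Mock replicate 2 was the highest array of this probe set and HS replicate 1 its lowest. Leaving both out was therefore bound to raise its differences from mock, and these p values test nothing. For MC+HS against mock 0 of 8 were called, against 3.55% of all, and between the vector groups 0 of 8, against 0.0036%. H2-Aa 1435290_x_at stood below mock in HS, at -0.53 ± 0.25 (limma adjusted p = 0.382). Groups did not overlap for 7 of the 8 in HS and 2 of the 8 in MC+HS, against 46.4% and 26.9% of all probe sets.

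As a description over the 9 arrays, which share their scaling, the tested probe sets of the I-A and I-E chains, H2-Ea included, correlated with each other at 0.13 to 0.83 (Pearson). Over the 7 arrays without HS replicate 1 and mock replicate 2 the same pairs ran from -0.67 to 0.71, so the positive correlations of some pairs rest on those arrays. H2-Ab1 1450648_s_at and H2-Eb1 had a correlation of 0.78, and H2-Eb1 and H2-Ea of 0.75. Cd74 correlated with the H2-Aa, H2-Ab1, H2-Eb1 and H2-Ea probe sets at -0.21 to 0.26. H2-Aa 1435290_x_at and 1452431_s_at, which read the same gene, had a correlation of 0.26. Outside the set, Pbk, Golm1, Asap2, Cnksr3, Minar1 and Lrmda had the patterns most like the mean of Cd74, H2-Aa, H2-Ab1 and H2-Eb1 among 13326 genes, with Pearson correlations of 0.847 to 0.922 and Spearman correlations of 0.567 to 0.833 over 9 arrays. Over the 7 arrays without HS replicate 1 and mock replicate 2, the same genes stood at 0.727 to 0.927. These genes were picked as the highest of 13326 over arrays that include those 7, so high values are built in and test nothing.

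Factors that build the class II promoter complex, with the myeloid factors Spi1 and Irf8, gave no call with all arrays. The count was 0 of 9 measured genes in either vector comparison, against 0.93% of all genes called in HS and 0.713% in MC+HS. Rfx5, an RFX subunit, gave 641 to 1087 in HS, 928 to 1162 in MC+HS and 789 to 927 in mock, with differences of 0.06 ± 0.25 and 0.27 ± 0.25. Spi1, which encodes the myeloid factor PU.1, gave 283, 421 and 387 in HS, 353, 345 and 394 in MC+HS, and 233, 295 and 235 in mock. Spi1 rose in HS once HS replicate 1 was left out, by 0.64 ± 0.14 (limma adjusted p = 0.0265), against 3.82% of all genes called higher, and stood at 0.50 ± 0.12 in MC+HS (limma adjusted p = 0.0530). Irf8, a partner of PU.1 in myeloid cells, stood at 0.72 ± 0.21 and 0.70 ± 0.19 without that array (limma adjusted p of 0.117 and 0.0829).

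Genes that prepare the peptide and turn class II over were not called in any vector comparison, 0 of 9 with all arrays and 0 of 9 without HS replicate 1. Of all genes, 0.93% were called in HS and 0.713% in MC+HS with all arrays, and 4.21% and 3.68% without HS replicate 1. Ifi30, the thiol reductase of antigen processing, gave 275, 1182 and 1282 in HS, 1183, 949 and 995 in MC+HS, and 603, 1071 and 528 in mock. Mock replicate 2 again lay among the vector arrays, HS replicate 1 apart, and above the other mock arrays. The Ifi30 differences without HS replicate 1 were 0.80 ± 0.24 in HS and 0.56 ± 0.21 in MC+HS (limma adjusted p of 0.122 and 0.247). Ctss, the protease that trims the invariant chain, stood at 0.55 ± 0.16 and 0.41 ± 0.15 (limma adjusted p of 0.121 and 0.208).

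Of the interferon gamma pathway, 2 of 8 measured genes rose in both vector groups with all arrays, Gbp2, an interferon-induced GTPase, and Cxcl9, a chemokine for activated T cells, against 0.893% and 0.69% of all genes. Leaving out HS replicate 1 gave 4 of 8 in HS and 2 of 8 in MC+HS, against 3.82% and 3.25%. The added genes in HS were Socs1, a feedback inhibitor (1.15 ± 0.22, limma adjusted p = 0.0157), and Ifngr1, a receptor chain for interferon gamma (0.54 ± 0.12, limma adjusted p = 0.0366). Cxcl9 gave 310, 415 and 324 in HS, 161, 377 and 323 in MC+HS, and 7.67, 19.9 and 5.66 in mock. It rose by 3.78 ± 0.32 in HS and 3.44 ± 0.32 in MC+HS (limma adjusted p of 0.00176 and 0.00481). Ifng itself was dim, with 29.3 to 51.9 in HS, 11.2 to 24.0 in MC+HS and 4.47 to 15.5 in mock, and was not tested. Irf1, which acts on the interferon gamma-responsive promoter of Ciita, gave 815 to 1164 in HS, 723 to 1248 in MC+HS and 509 to 715 in mock, with differences of 0.73 ± 0.28 and 0.84 ± 0.28 that did not pass (limma adjusted p of 0.622 and 0.564).

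Class I presentation, which displays peptides made inside the cell, moved in the same mice. With all arrays 4 of 11 measured genes rose in HS (Tap1, Tap2, H2-D1 and Erap1) and 3 of 11 in MC+HS (Tap1, Tap2 and H2-D1), against 0.893% and 0.69% of all genes, and without HS replicate 1 11 of 11 rose in both, against 3.82% and 3.25% of all genes. Nlrc5, the counterpart of Ciita for class I promoters, gave 163, 1048 and 1345 in HS, 802, 768 and 733 in MC+HS, and 138, 281 and 123 in mock. HS replicate 1 lay in the mock range, and the other vector arrays lay above all mock arrays. Without it, the difference was 2.70 ± 0.26 in HS and 2.08 ± 0.24 in MC+HS (limma adjusted p of 0.0002 and 0.000612). With all arrays it was 1.78 ± 0.67 and 2.08 ± 0.67 and did not pass (limma adjusted p of 0.607 and 0.517). Tap1, a subunit of the peptide transporter, rose by 2.55 ± 0.35 in HS and 2.99 ± 0.35 in MC+HS with all arrays (limma adjusted p of 0.0124 and 0.00919).

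Without HS replicate 1 the median log2 difference from mock of the 11 class I genes was 2.48 in HS and 2.08 in MC+HS. For the 5 tested class II genes, each by its probe set of highest mean, it was 0.06 and -0.10, beside 0.05 and 0.01 over all genes tested. With all arrays these medians were 1.78 and 2.08 for class I, -0.11 and -0.10 for class II, and -0.23 and 0.01 over all genes. On mock replicate 2, H2-D1 and Nlrc5 of the class I list were also above the other mock arrays. H2-D1, a class I heavy chain with near-identical relatives, gave 2398 there and 1080 and 957 on the others, and Nlrc5 gave 281 against 138 and 123. The other class I genes are not given for this array, so H2-D1 and Nlrc5 do not show how the list as a whole stood there. The class I and class II lists were not tested against each other.

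**Figure D4:**
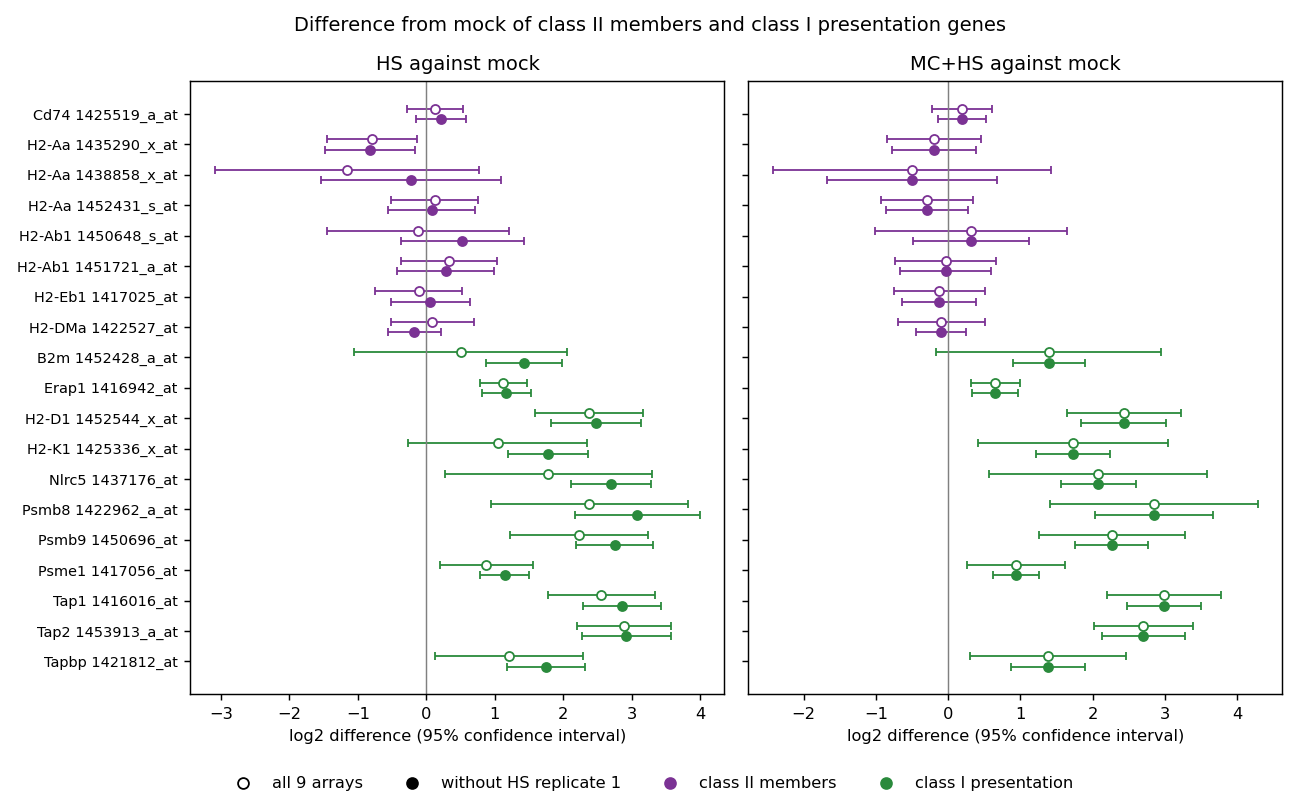
Log2 difference from mock with its 95% confidence interval (x axis) of the 8 tested class II probe sets (purple) and the 11 class I presentation genes (green), in HS (left) and MC+HS (right), with all arrays (open) and without HS replicate 1 (filled). Filled class I points lie above 0.6 in both panels, while the class II intervals cross 0 except that of H2-Aa 1435290_x_at in HS.

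Markers of cells that carry class II were not called in either vector group with all arrays, for dendritic cells 0 of 5, B cells 0 of 2 and border macrophages 0 of 5 measured genes, and T cells gave 0 of 3. Of all genes, 0.93% were called in HS and 0.713% in MC+HS. Without HS replicate 1, the log2 signal of Cbr2 fell by 1.401 ± 0.29 in MC+HS (limma adjusted p = 0.0231), against 0.431% of all genes called lower. Mrc1, the mannose receptor of border macrophages, gave 65.2 to 89.1 in HS, 65.2 to 101 in MC+HS and 133 to 155 in mock, and did not pass (limma adjusted p of 0.0836 and 0.0637 without HS replicate 1). The other tested border macrophage markers did not all lie on the same side: without that array Pf4 stood at -0.66 in HS and -0.60 in MC+HS, Ms4a7 at 0.32 and 0.52, and F13a1 at 0.21 and 0.04, none of them called. Of 6 measured markers of infiltrating monocytes, Chil3 and Ccr1 rose in each vector group, against 0.893% and 0.69% of all genes called higher. With HS replicate 1 left out Plac8 was the third, 3 of 6 against 3.82% and 3.25%. Ccr2, Fn1 and Vcan were not called, and with all arrays Fn1 and Vcan stood at -0.16 and -0.19 in HS. Among homeostatic microglia markers 1 of 9 fell in HS, Gpr34, and 2 of 9 in MC+HS, Gpr34 and P2ry12, against 0.0375% and 0.0225% of all genes called lower. With HS replicate 1 left out 3 of 9 fell in each, these genes and Siglech, against 0.393% and 0.431%. With mock replicate 2 left out 0 of 9 fell in MC+HS, where 0% of all genes were called lower. The part of any change in cell makeup in the class II values was not tested.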

How the data were processed

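Total RNA was labelled as biotin cRNA from 5 µg per mouse, per the labels' protocols. The deposited table holds the authors' intensity for each of 45101 probe sets and 9 arrays on a linear scale, for which the submitters' processing notes name GCOS 1.4.0.036. Summarisation and scaling of the deposited intensities were not given in the sources used here, and no detection calls were used. For this report signals became log2(signal + 16) and array medians were moved to the median of the 9 medians, by at most 0.66. Left out were 64 control probe sets and those not above their array's 40th percentile on at least 3 arrays, leaving 28257 probe sets and 13331 genes. A gene was stood for by its tested probe set of highest mean.

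Groups were compared with limma 3.58.1 in R 4.3.3 (lmFit, eBayes with an intensity trend, two-sided) in 1 fit of all 9 arrays with group as the term, with Benjamini-Hochberg adjustment over all tested probe sets and calls under 0.05. Values after ± are standard errors. Scripts were tested on simulated data. Labels describe replicates as biological, and a group is 3 mice, so their number limits the precision. The labels do not say that a replicate number is shared across groups, and the main fit did not pair them. Deviations of same-numbered arrays correlated at -0.17 to 0.29 over 9 pairs. The highest were between MC+HS and mock, 0.29 for replicate 3 and 0.26 for replicate 1. With 3 arrays per group these values cannot settle whether the numbers pair the mice.

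The members and the 14 gene lists, of which 102 of 115 entries have a probe set, were chosen with earlier results of these data known. The rule named all member probe sets, allowed up to 4 genes per list with the smallest p in a comparison with mock and any gene called without HS replicate 1, of which only some are given, and named the 6 genes most like the class II mean, ranked by the lower of their correlations over 9 arrays and over 8 without HS replicate 1. Rfx5, Ifi30, Fn1, Vcan, Ms4a7, F13a1, Ctss, Nlrc5, Ifng, Drd1, Drd2 and cell markers beside mock replicate 2 were given outside this rule, after their values were seen. Alternatives were other pseudocounts, filters, normalizations and fits, and each array left out.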

Additional observations from a re-analysis of the deposited data

How the results depend on the processing

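Each comparison was repeated under 20 alternatives, and the count of called member probe sets was 0 in 57 of the 60 counts. The exceptions were HS against mock with array quality weights, where 1 was called (H2-Aa 1435290_x_at, -0.89) among 27.5% of all probe sets, MC+HS against HS with the same weights, where 1 was called (the same probe set, 0.63) among 23.1%, and HS against mock without HS replicate 1 and mock replicate 2 together, where 1 was called. That last alternative was chosen after seeing the data. In 5 of 18 cases an array correlated best with its own number in another group, which does not settle whether the numbers pair the arrays. With the replicate block 0 members were called in each comparison. In all, 148 probe sets were then called for HS against mock and 95 for MC+HS against mock, against 219 and 164 without the block.

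Of 468 log2 differences under alternatives, 417 kept their sign and side of the threshold and 49 changed sign, none of them called before; the cause was not tested. In HS against mock, array quality weights gave -0.10 for H2-Aa 1452431_s_at, 0.066 for H2-Ab1 1450648_s_at and -0.19 for H2-DMa. Without alignment of array medians H2-Ab1 1450648_s_at stood at 0.18 and H2-Eb1 at 0.19. Without HS replicate 1 and mock replicate 2 together, H2-Aa 1438858_x_at stood at 0.48, H2-Ab1 1450648_s_at at 1.05, H2-DMa at -0.14 and H2-Eb1 at 0.32. In MC+HS against HS, Cd74 stood at -0.21 without alignment, -0.14 with quantile normalization and -0.0019 with array quality weights. With these weights H2-Aa 1438858_x_at stood at -0.28 and H2-Ab1 1450648_s_at at -0.089. Without the pair of arrays Cd74 stood at -0.019, H2-Aa 1438858_x_at at -0.27, H2-Ab1 1450648_s_at at -0.20 and H2-DMa at 0.081. In MC+HS against mock, H2-Ab1 1450648_s_at stood at -0.023 with array quality weights. Without the pair, H2-Aa 1435290_x_at stood at 0.093, 1438858_x_at at 0.21 and 1452431_s_at at 0.046, H2-Ab1 1451721_a_at at 0.37 and H2-Eb1 at 0.14.

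With each array left out in turn, differences in HS against mock ran from -0.19 to 0.46 for H2-Aa 1452431_s_at, -0.57 to 0.52 for H2-Ab1 1450648_s_at, -0.18 to 0.23 for H2-DMa and -0.38 to 0.15 for H2-Eb1. In MC+HS against HS they ran from -0.072 to 0.24 for Cd74, -0.27 to 1.15 for H2-Aa 1438858_x_at, -0.20 to 0.84 for H2-Ab1 1450648_s_at, -0.39 to 0.081 for H2-DMa and -0.18 to 0.14 for H2-Eb1. In MC+HS against mock they ran from -0.46 to 0.093 for H2-Aa 1435290_x_at, -1.25 to 0.21 for 1438858_x_at, -0.60 to 0.046 for 1452431_s_at, -0.13 to 0.84 for H2-Ab1 1450648_s_at, -0.27 to 0.37 for 1451721_a_at, -0.30 to 0.032 for H2-DMa and -0.39 to 0.14 for H2-Eb1. The 3 arrays per group limit precision: the median 95% interval of the 8 member probe sets in HS against mock reached 0.64 to either side, with and without HS replicate 1.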
